A study of Mus musculus with 6 samples.

Results

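The genes described here write, bind or help to place methylation of lysine 9 of histone H3 (H3K9), a mark of silent chromatin. They were the 10 genes *Ehmt1*, *Ehmt2*, *Setdb1*, *Suv39h1*, *Suv39h2*, *Wiz*, *Trim28*, *Cbx1*, *Cbx3* and *Cbx5*, and every probe that carries 1 of these symbols in the platform annotation was taken. This gave 9 probes of 6 genes. The array has 45281 probes, of which 14436 were tested. The annotation at hand covered only the probes for which the authors gave processed values, so the other probes of the array could not be searched. A gene or marker is called annotated below if a probe of the covered part carried it. No probe of the annotation used here carried the symbol, the gene identifier or a RefSeq accession of *Ehmt1*, *Suv39h1*, *Suv39h2* or *Cbx1*, so these 4 genes were not analysed here.

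Methylation of H3K9 is laid down by SET domain enzymes. G9a, encoded by *Ehmt2*, works as a pair with GLP, encoded by *Ehmt1*, and makes mainly the dimethyl mark of silent genes, while SETDB1 and the SUV39H enzymes make the trimethyl mark. The HP1 proteins, encoded by the *Cbx* genes studied here, bind the methylated lysine through their chromodomain and hold chromatin in a compact state. In ES cells SETDB1 and its partner TRIM28 are known for the silencing of endogenous retroviruses, and germ cells lose dimethylation of H3K9 early in their development.

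RNA was measured in *Prdm14*-null (knockout) and wild-type control mouse ES cells, 3 samples of each, on Illumina Mouse WG-6 BeadChips. Both genotypes had a C57BL/6 background, received no treatment and were kept in 2i, a culture medium that blocks MEK and glycogen synthase kinase-3. The null lines were derived in 2i from crosses of heterozygous mice carrying a EUCOMM allele, and replicates of a genotype came from successive passages. The labels and methods do not say how many lines were used, and p-values therefore measure only the spread between these samples, which may be technical. All levels below are normalized log2 signals after background correction, fold changes are on this log2 scale as null over wild type, and a probe was called at a limma adjusted p under 0.01, the threshold of the study.

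The *Prdm14* probe was detected on 0 of 3 null arrays and on 3 of 3 wild-type arrays, and its measured log2 fold change was -3.47 (limma adjusted p = 2.46e-07). With the undetected arrays set to the lowest detected signal, the signal was at least 6.62-fold lower in null cells, a bound that holds for this background correction only. The log2 fold change was -2.18 with no background correction, -2.56 with an offset of 50 and -1.59 with the authors' processed values, and the adjusted p passed the threshold in each. All 10 ES cell markers on the list were detected on every array. Their summed normalized signal was 56961 to 58837 in null cells and 59240 to 63150 in wild-type cells. On the brightest probe of each gene *Sox2* was higher (log2 fold change 0.54) and *Tfcp2l1* lower (-0.61). The other *Sox2* probe was not called (0.30, limma adjusted p = 0.254). For *Pou5f1* the brightest probe was not called (0.36, adjusted p = 0.0280), but its other probe was higher (0.60, adjusted p = 0.00321). Of 6 measured primed epiblast markers 2 were higher and 1 was lower, with a summed normalized signal of 9760 to 12604 in null cells and 5662 to 6374 in wild-type cells. Most of this sum came from *Dnmt3b*, with mean log2 signals of 13.32 in null cells and 12.37 in wild-type cells. The next brightest, *Cldn6*, had means of 9.31 and 8.44, so the sum says little about the other markers. The higher ones were *Dnmt3b* (log2 fold change 0.95) and *Otx2* (2.99, limma adjusted p = 1.82e-06), and the lower one was *Lef1* (-1.09, adjusted p = 0.00210). *Otx2* was detected on 3 null arrays and 1 wild-type array, and *Lef1* on 0 null and 3 wild-type arrays. Of 2 annotated primitive endoderm markers 1 was tested and not called, and *Thy1*, the only annotated fibroblast marker, was detected on every null array and on no wild-type array. Of 4 measured trophectoderm markers 1 was higher and 2 were lower. The Y-linked *Eif2s3y* was detected on the 3 null arrays and on 0 of 3 wild-type arrays, while the probe of *Uty*, also Y-linked, was detected on every array and not called (limma adjusted p = 0.132). The labels do not give the sex of the lines, and a difference in sex cannot be told apart from genotype here. The part of these differences in the results below was not tested.

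Of the 9 probes 1 was higher and 0 were lower in null cells at the threshold, against 13.8% of all tested probes called in either direction, 6.19% higher and 7.56% lower. The probe was the brighter one of *Ehmt2*. Limma's unadjusted p was under 0.05 for both *Ehmt2* probes, *Trim28* and the brighter *Cbx3* probe, with estimates above 0, and for *Cbx5*, with an estimate below 0. Of all tested probes 37.7% had such a p, 20% with estimates above 0 and 17.7% below 0. The arrays of the genotypes did not overlap for 6 of the 9 probes, a separation seen for 42.3% of all tested probes. In 5 of the 6 the null arrays were the higher ones, against 22.8% of all probes, and in 1, *Cbx5*, the lower ones, against 19.5%. The median log2 fold change was 0.19 over the 9 probes and 0.03 over all tested probes. The called member stood at percentile 94.0 of all log2 fold changes, and *Cbx5*, the lowest of the 9, at percentile 14.3.

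**Figure D1:**
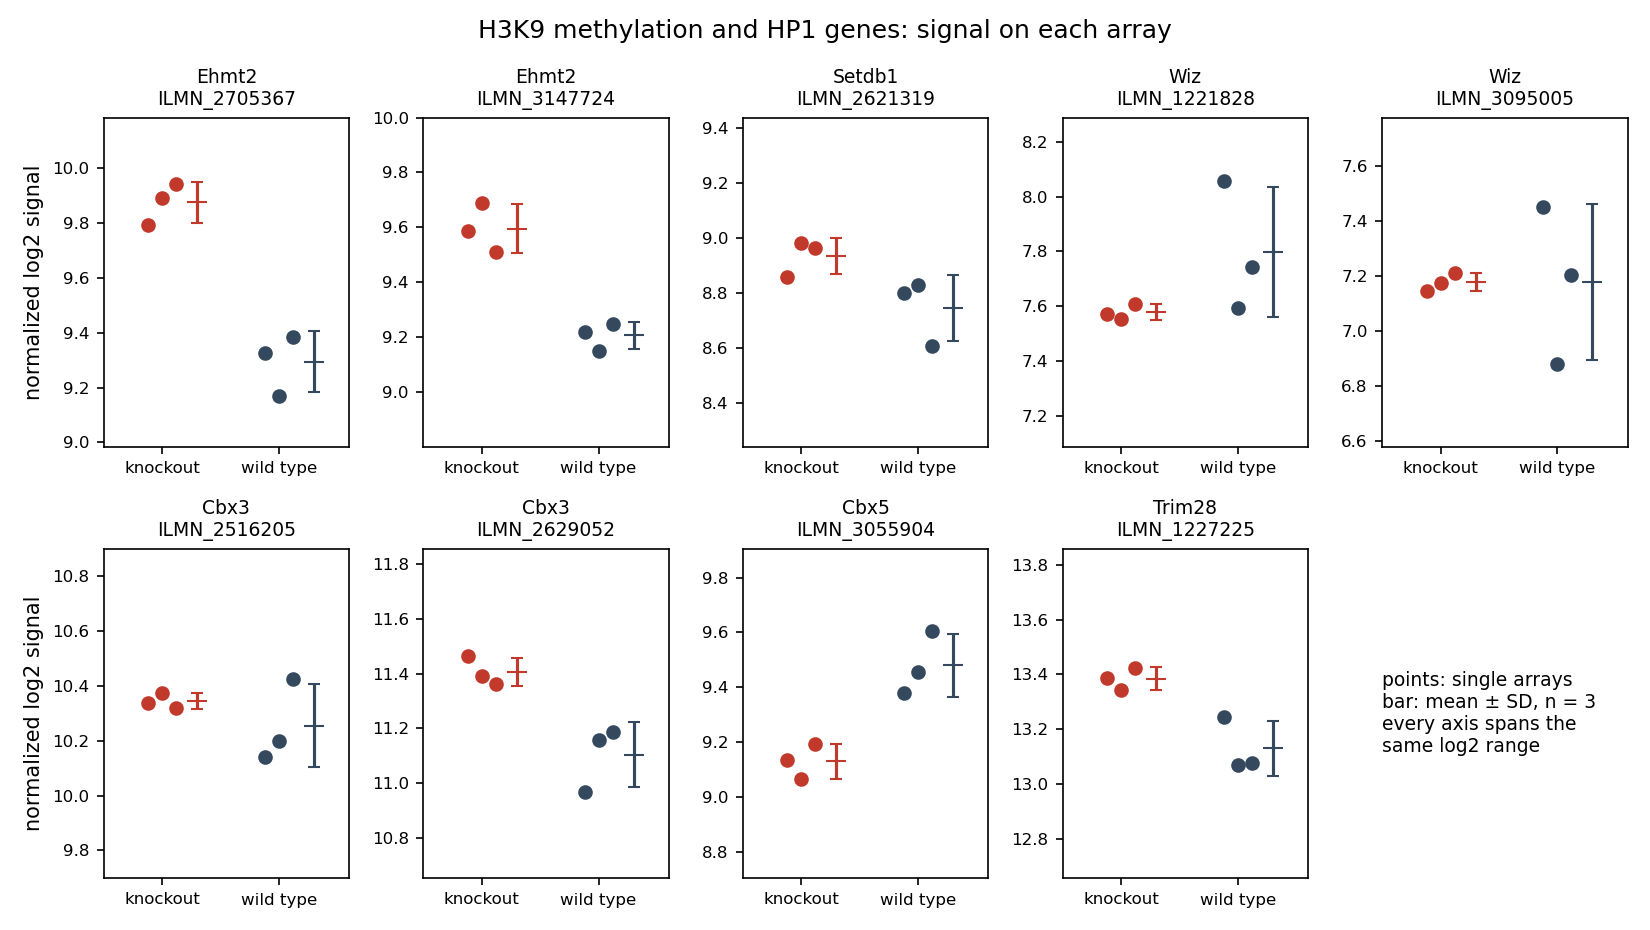
Normalized log2 signal (vertical axes, each spanning the same log2 range) on the 3 *Prdm14*-null and the 3 wild-type arrays, for each of the 9 probes. Points are single arrays and bars are mean ± SD (n = 3). Null arrays lie above wild-type arrays on both *Ehmt2* probes, *Setdb1*, *Trim28* and 1 probe of *Cbx3*, and below them for *Cbx5*.

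Because *Ehmt2* and *Cbx5*, the 2 genes with the largest changes, had estimates on opposite sides of 0, the promoters at their annotated starts are shown. Both come from RefSeq (GRCm38.p6), read 5′ to 3′ on the gene's strand from 250 bases before to 50 bases after the start. The *Ehmt2* window is chr17:34898224-34898523 on the plus strand and the *Cbx5* window is chr15:103239803-103240102 on the minus strand. Capitals mark CG dinucleotides, the sites of DNA methylation.
Ehmt2: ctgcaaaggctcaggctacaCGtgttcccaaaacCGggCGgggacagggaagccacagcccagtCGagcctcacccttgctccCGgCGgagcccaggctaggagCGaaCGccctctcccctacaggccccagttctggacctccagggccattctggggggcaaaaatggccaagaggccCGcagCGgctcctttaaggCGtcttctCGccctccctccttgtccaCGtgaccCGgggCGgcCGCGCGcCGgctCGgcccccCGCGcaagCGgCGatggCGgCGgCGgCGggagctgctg
Cbx5: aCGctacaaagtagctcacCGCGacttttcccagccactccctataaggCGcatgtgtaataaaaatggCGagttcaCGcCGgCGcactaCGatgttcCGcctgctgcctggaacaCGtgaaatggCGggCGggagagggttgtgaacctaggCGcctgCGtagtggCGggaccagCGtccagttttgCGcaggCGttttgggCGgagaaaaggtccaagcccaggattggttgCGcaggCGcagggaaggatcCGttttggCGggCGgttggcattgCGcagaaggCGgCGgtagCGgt

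The *Ehmt2* window held 28 CG dinucleotides and the *Cbx5* window 29, where the median over 32851 promoter windows of the same length was 7. The window of another annotated start held 40 for *Ehmt2* and 8 for *Cbx5*. The sequence GGTCTCTAA, which resembles the motif known for PRDM14, was searched on both strands. It was found in none of the 17 windows of the 10 genes and in 0.256% of all windows. Its first 7 letters, GGTCTCT, were likewise in 0 of the 17 windows and in 5.68% of all windows. These matches describe the letters of 300-base windows only.

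*Ehmt2* lies at chr17:34898463-34914073 (GRCm38.p6, as for all gene positions given here). Its brighter probe (ILMN_2705367) read 9.79, 9.89 and 9.94 on the null arrays, against 9.33, 9.17 and 9.39 on the wild-type arrays. Every null array was above every wild-type array, and the spread within a genotype was small beside the gap. The means were 9.88 ± 0.08 in null cells and 9.29 ± 0.11 in wild-type cells (SD, n = 3 each), a log2 fold change of 0.58 (standard error 0.10, limma adjusted p = 0.00332). The 95% interval of this fold change was 0.35 to 0.81. The same order was present before any normalization, with deposited signals of 1086, 997 and 996 in null cells, against 483, 635 and 893 in wild-type cells. The call ended when null sample 2 (adjusted p = 0.0175), null sample 3 (0.0142) or wild-type sample 2 (0.0145) was left out, while the log2 fold change ran from 0.52 to 0.63 over the 6 fits with 1 sample left out.

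The dimmer *Ehmt2* probe (ILMN_3147724) read 9.59, 9.69 and 9.51 on the null arrays, against 9.22, 9.15 and 9.25 on the wild-type arrays. Deposited signals of this probe overlapped, at 943, 877 and 750 in null cells, against 450, 627 and 823 in wild-type cells. After normalization the genotypes did not overlap, but the log2 fold change of 0.39 (95% interval 0.17 to 0.61) missed the threshold (limma adjusted p = 0.0172). It passed at 0.01 with no background correction (adjusted p = 0.0061), with an offset of 50 (0.00928) and with array weights (0.00955). It also passed with the eBayes trend and robust fit (0.00517) and with the authors' processed values (0.00343). In each of these settings more probes of the whole array were called higher than in the reported fit. The dimmer probe did not pass in any of the 6 fits with 1 sample left out, where fewer were called higher. The fold changes of both probes were compared directly, through the difference of the brighter and the dimmer probe on each array. This difference was 0.21, 0.20 and 0.43 in null cells, against 0.11, 0.02 and 0.14 in wild-type cells. The gap of 0.19 (95% interval -0.07 to 0.45) did not pass in a limma fit of such probe pairs over 2987 genes (adjusted p = 0.538), in which 0.737% of pairs were called. A two-sided exact permutation test of the 3 against 3 differences gave p = 0.1, the smallest it can give.

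*Setdb1*, which encodes the trimethylating enzyme recruited by TRIM28, lies at chr3:95323525-95357202. It read 8.86, 8.98 and 8.96 on the null arrays, against 8.80, 8.83 and 8.61 on the wild-type arrays. The arrays just failed to overlap, the first null array lying close above the second wild-type array. Its log2 fold change was 0.19 (95% interval -0.04 to 0.42) and did not pass (limma adjusted p = 0.21). The interval leaves room for a rise of up to 0.42 and for a small fall.

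*Trim28* encodes the corepressor, also called KAP1, that KRAB zinc finger proteins use to bring SETDB1 to their targets, and lies at chr7:13024152-13031032. Its probe read 13.39, 13.34 and 13.43 on the null arrays, against 13.25, 13.07 and 13.08 on the wild-type arrays. The genotypes did not overlap, with means of 13.39 ± 0.04 in null cells and 13.13 ± 0.10 in wild-type cells (SD, n = 3 each). The log2 fold change of 0.25 (95% interval 0.03 to 0.47) did not pass (limma adjusted p = 0.0879), nor in any of 17 alternative settings, where the adjusted p ran from 0.0122 to 0.273. Deposited signals of this probe ran from 10307 to 11719 in null cells and from 7462 to 10552 in wild-type cells.

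WIZ is a zinc finger protein that holds the G9a and GLP pair together, and its gene lies at chr17:32354047-32389501. Its 2 probes are assigned to different transcript records. The brighter one (ILMN_1221828) read 7.57, 7.55 and 7.61 on the null arrays, against 8.06, 7.59 and 7.74 on the wild-type arrays. The null arrays were tightly grouped and 1 of them lay above the lowest wild-type array, so the genotypes overlapped (log2 fold change -0.22, 95% interval -0.51 to 0.07, limma adjusted p = 0.244). The dimmer one (ILMN_3095005) read 7.15, 7.17 and 7.21 on the null arrays, against 7.45, 6.88 and 7.20 on the wild-type arrays. Here the means were the same to 2 decimals, at 7.18, and the interval of the difference was -0.32 to 0.32. The first wild-type array was the highest of the 6 on both probes, and without it the log2 fold change of the brighter probe was -0.09.

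The estimates of the HP1 genes lay on both sides of 0, and none passed the threshold. *Cbx5*, which encodes HP1α, lies at chr15:103191546-103239904. It read 9.13, 9.06 and 9.19 on the null arrays, against 9.38, 9.46 and 9.60 on the wild-type arrays. Every null array lay below every wild-type array, with means of 9.13 ± 0.06 in null cells and 9.48 ± 0.11 in wild-type cells (SD, n = 3 each). The log2 fold change was -0.35 (standard error 0.10, 95% interval -0.58 to -0.12) and missed the threshold (limma adjusted p = 0.0334). With the authors' processed values it was -0.30 and passed (adjusted p = 0.00945), in a fit that called 15.2% of probes, 7.03% higher and 8.19% lower. At a threshold of 0.05, which called 25.4% of all probes, 12.8% higher and 12.6% lower, *Cbx5* and both *Ehmt2* probes passed. Deposited signals overlapped, at 706, 578 and 606 in null cells, against 502, 756 and 1028 in wild-type cells, where the first wild-type array had the lowest median signal of all arrays. Genes of chromosome 15 had a median log2 fold change of -0.18 (336 genes), against 0.03 for the genes of other chromosomes. With the median of each chromosome removed from each array, the log2 fold change of *Cbx5* was -0.17 (adjusted p = 0.265).

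*Cbx3*, which encodes HP1γ, the member of the family found also in transcribed chromatin, lies at chr6:51470154-51483704. The brighter probe (ILMN_2629052) read 11.46, 11.39 and 11.36 on the null arrays, against 10.97, 11.16 and 11.19 on the wild-type arrays. The null arrays all lay above the wild-type arrays, among which the first was lowest (log2 fold change 0.30, 95% interval 0.07 to 0.53, limma adjusted p = 0.0573). The dimmer probe (ILMN_2516205), assigned to a different transcript record, read 10.34, 10.38 and 10.32 on the null arrays, against 10.14, 10.20 and 10.43 on the wild-type arrays. The third wild-type array exceeded all null arrays on this probe, and the log2 fold change was 0.09 (95% interval -0.15 to 0.33, limma adjusted p = 0.577). The difference between the fold changes of the probes was 0.21 for *Cbx3* (adjusted p = 0.468) and -0.22 for *Wiz* (adjusted p = 0.425), and neither passed in the fit of probe pairs.

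**Figure D2:**
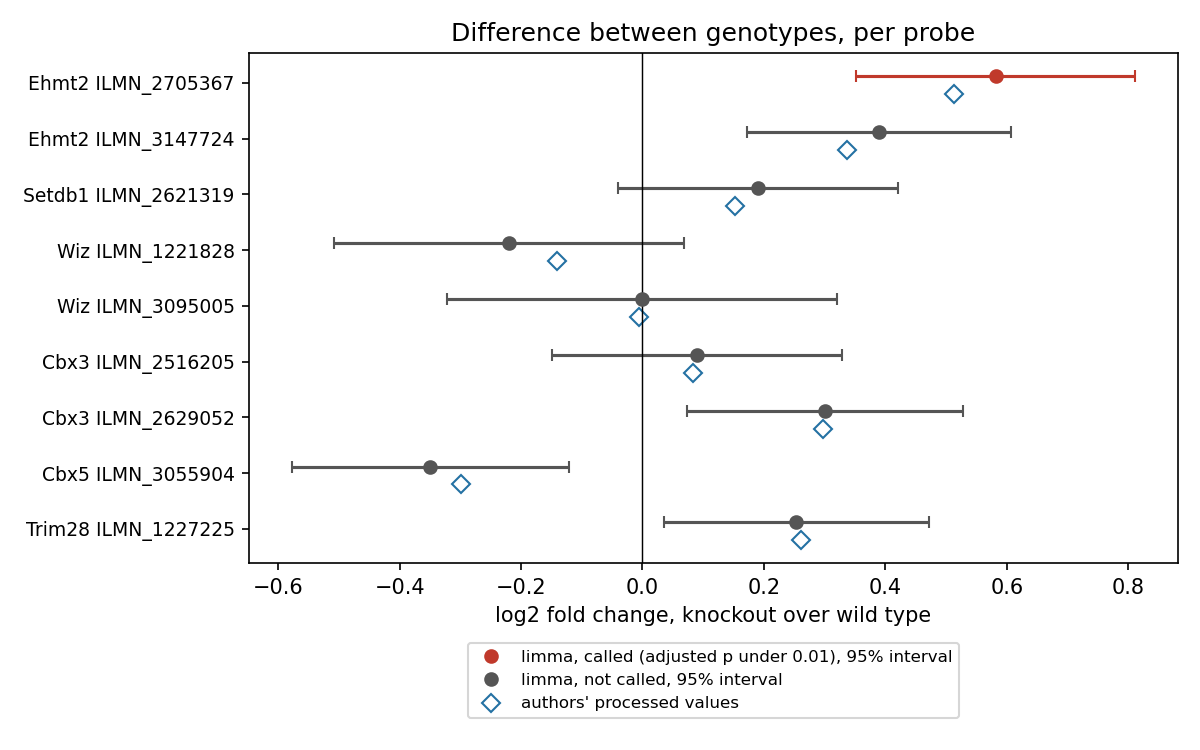
Log2 fold change, *Prdm14*-null over wild type (horizontal axis), of each of the 9 probes. Circles with bars give the limma estimate with its 95% interval, red where called, and open diamonds give the same contrast with the authors' processed values. Only the brighter *Ehmt2* probe, at 0.58, is red, and *Cbx5*, at -0.35, is lowest.

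The spread between replicates was uneven. On 8 of the 9 probes the SD was larger among wild-type than among null arrays, against 53% of all tested probes. The median SD of the 9 probes was 0.05 in null cells and 0.12 in wild-type cells, against 0.12 and 0.13 over all tested probes. The widest values were those of *Wiz* in wild-type cells, with SDs of 0.24 and 0.29.

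**Figure D3:**
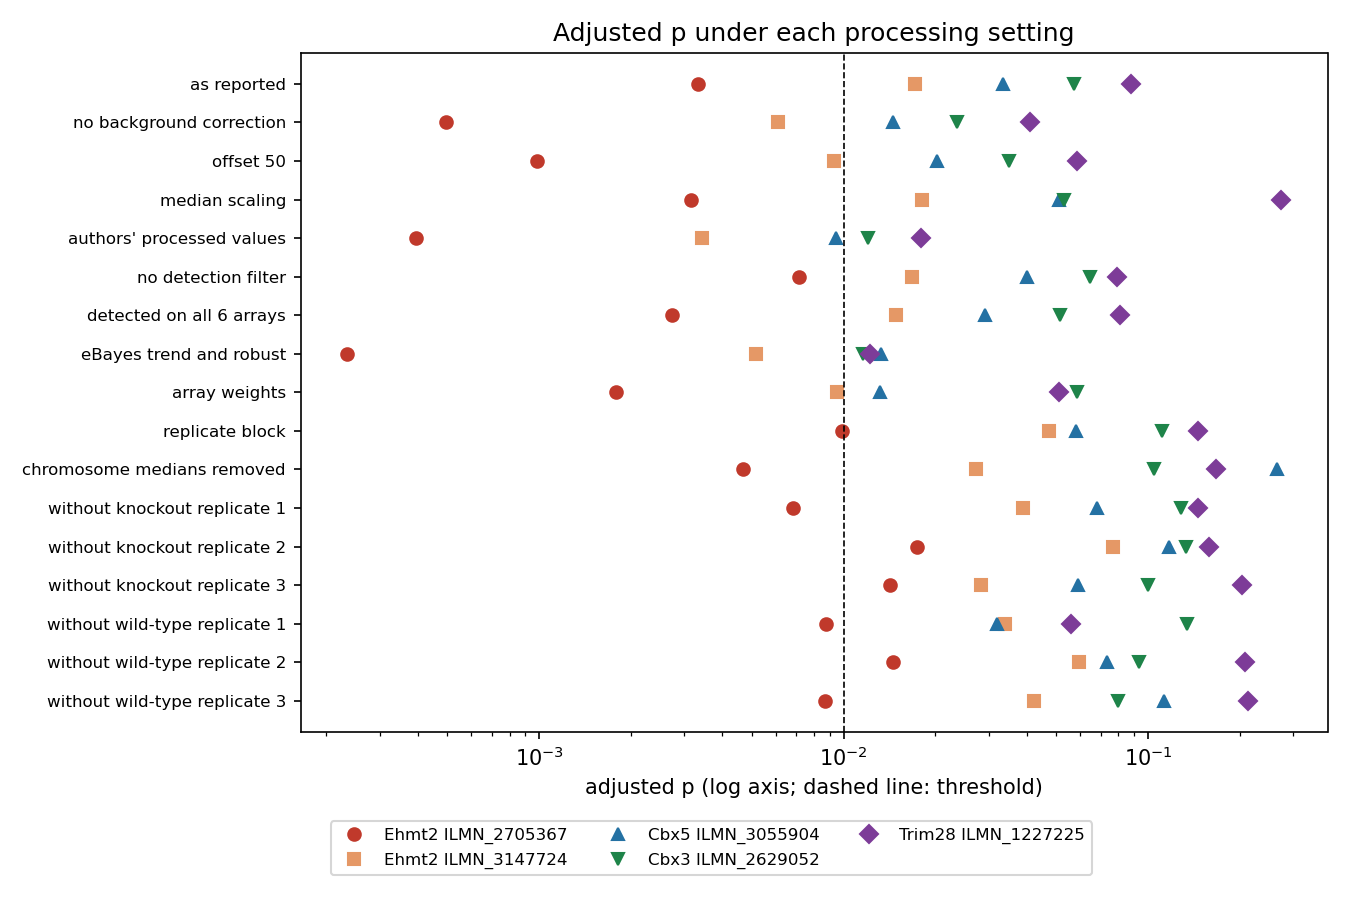
Adjusted p (horizontal log axis) of 5 probes under the reported fit and each processing setting (rows), with the threshold of 0.01 as a dashed line. The brighter *Ehmt2* probe is left of the line except in 3 of the fits with 1 sample left out. *Cbx5* crosses it with the authors' processed values only, and *Cbx3* and *Trim28* stay right of it in every row.

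Of 55 further genes of the H3K9 pathway, 39 had an annotated and tested probe. In null cells 2 were higher and 1 was lower, while 6.69% of all 8343 genes tested were higher and 8.4% lower. The median log2 fold change was 0.05 over the 39 genes and 0.02 over all genes. The largest change was that of *Lrif1*, which encodes a nuclear factor that binds HP1 and SMCHD1. It read 7.91, 8.03 and 7.95 on the null arrays, against 6.92, 6.98 and 6.85 on the wild-type arrays. The groups were far apart relative to their spread (log2 fold change 1.04, 95% interval 0.83 to 1.26, limma adjusted p = 8.36e-05), and the call held in all 17 alternative settings, with 0.60 from the authors' processed values.

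*Atrx*, which encodes a chromatin remodeller that deposits histone variant H3.3 in heterochromatin together with DAXX, was a dim probe at 6.69, 6.74 and 6.56 on the null arrays, against 5.85, 6.08 and 6.25 on the wild-type arrays. The genotypes did not overlap (log2 fold change 0.61, limma adjusted p = 0.00684), but its other probe gave 0.29 (adjusted p = 0.254). *Atrx* is X-linked, so the Y-linked difference between the genotypes given above stands beside its value, and its part was not tested. X-linked genes had a median log2 fold change of 0.12, against 0.02 for the other genes. The medians of single autosomes ran from -0.18 for chromosome 15 to 0.13 for chromosome 13. With chromosome medians removed the change was 0.47 and no longer called (adjusted p = 0.0217), and with the authors' processed values it was 0.23 (adjusted p = 0.0206). The call also ended in 5 of the 6 fits with 1 sample left out, the exception being wild-type sample 3 (adjusted p up to 0.0322 in the others).

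Among HP1 partners and other heterochromatin proteins 13 of 15 measured genes had log2 fold changes above 0, with a median of 0.18, and 2 of the 15, *Lrif1* and *Atrx*, passed the test. Over all genes 4437 of 8343 were above 0, and 6.69% were called higher and 8.4% lower. *Daxx*, the H3.3 chaperone, gave 0.36 (limma adjusted p = 0.0641), and *Chd4*, the ATPase of the NuRD complex, 0.26 (adjusted p = 0.0642). *Smchd1*, a repressor of the inactive X chromosome, gave 0.22, *Kmt5c*, an H4K20 methyltransferase gene, 0.20 and *Uhrf1*, which encodes a reader of methylated H3K9 and hemimethylated DNA, -0.21, none of them called. The dimmer *Uhrf1* probe lay on the other side of 0, at 0.15 (limma adjusted p = 0.507).

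Of all genes tested 8.4% were lower, and of the partners of G9a and GLP 1 of 5 measured genes was lower. This was *Cdyl2*, which encodes a chromodomain protein related to the H3K9 reader CDYL. It read 7.11, 6.79 and 6.81 on the null arrays, against 7.57, 7.54 and 7.63 on the wild-type arrays. Every null array lay below the wild-type arrays (log2 fold change -0.68, limma adjusted p = 0.00251), and the value was -0.37 with the authors' processed values (adjusted p = 0.00212). The call ended when null sample 2 was left out (adjusted p = 0.0146), and likewise for null sample 3 (0.0107) and for wild-type sample 3 (0.0131). *Cdyl* itself gave 0.19 and *L3mbtl2*, a Polycomb-related repressor, -0.22, both not called.

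None of 8 measured partners of SETDB1 and TRIM28 passed the test. Their log2 fold changes lay between -0.21 for *Sumo2*, which encodes the modifier attached to TRIM28, and 0.21 for *Smarcad1*, a remodelling ATPase. *Atf7ip*, which protects SETDB1 from degradation, gave -0.11 (95% interval -0.36 to 0.15). The 8 measured H3K9 demethylases were not called either, with a median of -0.01 and a range from -0.20 for *Kdm7a* and *Kdm3b* to 0.22 for *Kdm4b*. Of the other H3K9 methyltransferases *Prdm2* gave 0.08 and *Prdm16* -0.11, and *Morc2a*, the single measured gene of the HUSH list, gave -0.06. At limma's unadjusted p under 0.05, 0 genes of these lists passed, the 95% interval of each including 0, while 39.8% of all genes tested passed, 20.6% with estimates above 0 and 19.2% below 0.

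**Figure D4:**
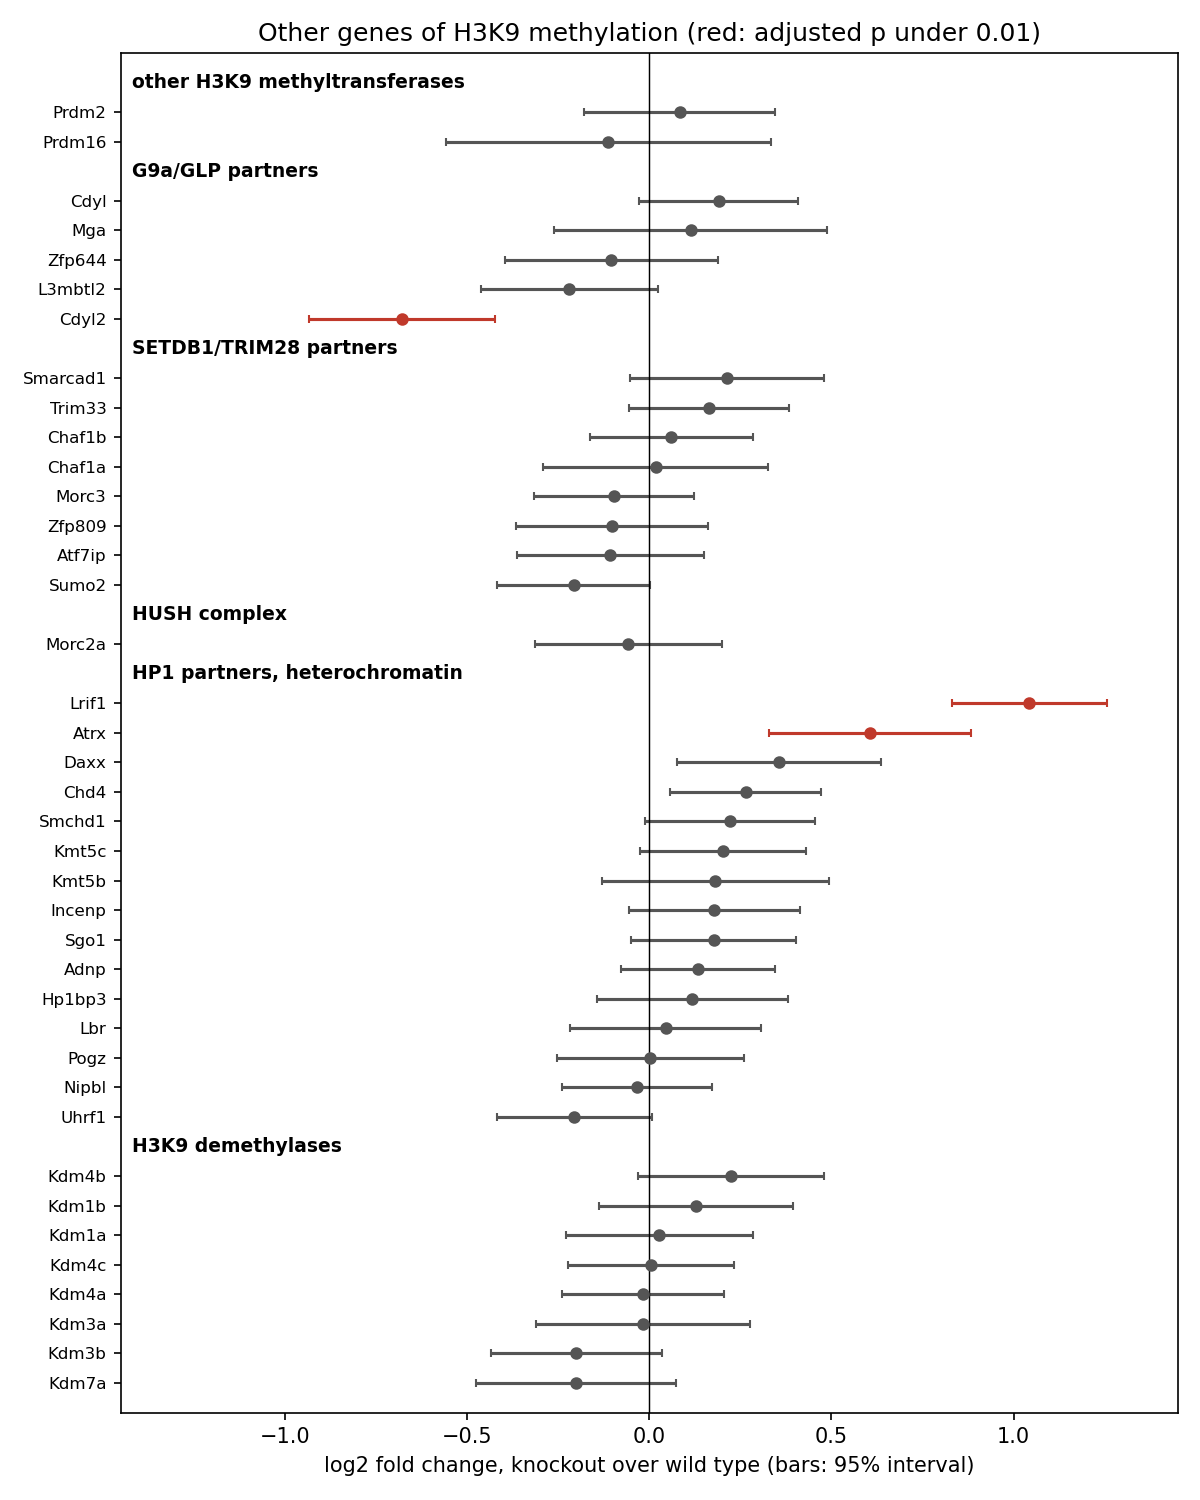
Log2 fold change, *Prdm14*-null over wild type (horizontal axis), of 39 further H3K9 pathway genes, grouped by list, on the brightest probe of each gene with its 95% interval. Red marks the called genes, *Lrif1* at 1.04, *Atrx* at 0.61 and *Cdyl2* at -0.68. Most other intervals include 0.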

How the data were processed

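Per the labels, RNA of 3 *Prdm14*-null and 3 wild-type ES cell samples was amplified and hybridised to BeadChips, 1 sample an array. The authors deposited an unnormalized signal intensity and a detection p-value for each of 45281 probes on each array, and a table of processed log2 values for 15961 probes, in which all arrays share 1 distribution. Its notes name lumi, with its version and settings not given in the sources used. Both genotypes lie in 1 table, and neither labels nor files place an array on a chip. A chip could therefore not be set as a block.

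From the deposited intensity, background was corrected by normexp, using the detection p-values to infer the negative controls. An offset of 16 was added before quantile normalization, and values were analysed as log2. Probes with a detection p under 0.01 on at least 3 of 6 arrays (14436) were tested with limma 3.58.1 in R 4.3.3 (lmFit and eBayes, genotype as the term), with Benjamini-Hochberg adjustment over all of them. Per array 13456 to 14901 probes were detected, and precision is limited by how many arrays there are. Symbols of the platform annotation were updated through gene identifiers to GRCm38.p6 (13829 probes matched), and a gene was read on its brightest tested probe.

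The members and gene lists were chosen with earlier results of these data known. Values on each array were given for all member probes and for called genes of the lists. Other list genes were named after their values were seen, as examples. On simulated data of 14439 probes the fit recovered 18% of probes changed by 0.5 on the log2 scale and 96% of those changed by 1. In the simulation 50 probes were changed at each size (0.5, 1, 1.5 and 2), while 1986 of 14436 probes were called in the real data. The cutoff set by the adjustment depends on how many probes differ, so the recovery may not carry over to the real data. Of 14239 unchanged simulated probes 0 were called. The alternatives covered background, offset, normalization, filter, variance model, weights, pairing, chromosome medians, threshold, probe choice and each sample left out. The comparison of probe pairs was added after seeing the data. Supplementary lists of the study were not used.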

Additional observations from a re-analysis of the deposited data

How the results depend on the processing

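The log2 fold changes of the member probes kept their direction in every setting tried, except the dimmer *Wiz* probe, which lay near 0 and changed sign in 5 of 17. Of 153 values of member probes 142 stayed on the same side of the threshold. Instead of 1 member probe, 2 were higher with no background correction, an offset of 50, the authors' processed values, the eBayes trend and robust fit, array weights, or a threshold of 0.05. Instead of 0, 1 was lower, *Cbx5*, with the authors' processed values or a threshold of 0.05. Instead of 2 further pathway genes, 1 was higher with the authors' processed values, no detection filter, chromosome medians removed, the mean of all probes of a gene, or the replicate block. At a threshold of 0.05, 1851 probes of the whole array were higher and 1818 lower.

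With 1 sample left out, 475 to 699 probes were higher and 713 to 937 lower, of the member probes 0 to 1 were higher and 0 lower, and of the pathway genes 1 to 2 were higher and 0 to 1 lower. The lowest counts over all probes came without the second null sample.

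Deviations from the genotype mean had correlations of -0.03, -0.06 and -0.12 between samples of the same number. Between samples of unlike number they ran from -0.07 to 0.13. Deviations from a mean of 3 samples depend on each other, so these correlations cannot decide whether samples of the same number were paired. With the replicate block, 663 probes were higher and 925 lower, 1 member probe was higher and 0 were lower, 1 pathway gene was higher and 1 lower. The brighter *Ehmt2* probe then had an adjusted p of 0.00989 and *Atrx* one of 0.0167. With 3 samples a genotype, changes near 0.5 on the log2 scale were seldom recovered in simulated data, and the member changes were near this size or smaller. Far fewer probes were changed in the simulation than were called in the real data, so its recovery may not carry over to the members. For undetected probes only a bound is known, and the 4 genes with no annotated probe were not analysed here.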
